A study of Mus musculus with 8 samples.

Results

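The genes described here are 40 symbols of macrophages and other leukocytes, read in RNA of sorted mouse pancreatic endocrine cells. They were chosen by gene symbol, with earlier results of these data known. Of the 40 symbols, 38 had a row among the 23284 genes of the count files. Adgre1 was present under its older symbol Emr1, which is itself on the list, and Spi1 had no row under that symbol. A row named Sfpi1, which RefSeq gives as a synonym of Spi1, is described beside the members and not counted among them. Sirpa and C1qa had another pattern across the libraries than most of the list, as described below.

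Pancreata of mouse embryos at embryonic day 17 were made into single cells, and cells with a Neurog3-Cre transgene and a Rosa Tomato reporter were sorted by flow cytometry. Of 8 libraries, 4, called KO 8, KO 9, KO 17 and KO 24 by the numbers in their titles, came from Neurod1 floxed/floxed animals, and the other 4, called Het 6, Het 7, Het 13 and Het 19, from Neurod1 floxed/wt animals. All 8 carry Neurog3-Cre and Rosa Tomato and share the strain label C56BL/J. The Cre is driven by Neurog3, so Neurod1 is deleted and Tomato switched on in cells that have made Neurog3 and their descendants, and Het cells lose 1 allele. The labels do not say whether libraries came from separate or pooled animals, so p-values measure the spread between these libraries.

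Macrophages enter the pancreas before birth from the yolk sac and the fetal liver, and they live among the epithelial, endocrine and mesenchymal cells. They depend on the growth factor receptor CSF1R, take up dying cells and debris through scavenger and Fc receptors, and make complement C1q. They do not belong to the Neurog3 lineage that the sort was set to collect.

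Library totals ran from 10350040 to 16080392 counts. Neurod1 itself, the targeted gene, was at 2.55, 12.9, 22.2 and 21.5 CPM (counts scaled by library size) in KO 8, 9, 17 and 24 and at 133 CPM or more in each Het library. The summed level of 13 endocrine markers was 22920 to 42740 CPM in KO and 57710 to 68820 CPM in Het, so genes of the labelled cell type were high in every library. Of these edgeR called Gcg (log2 fold change -1.04) and Ins2 (-1.63) lower in KO, and among duct markers it called Cftr higher (2.23). KO 8 and KO 9 had the lowest endocrine sums, and they stood apart from the other 6 libraries in the genes described here. Fold changes between genotypes are therefore given with and without them for each tested member.

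Many macrophage genes have sites for PU.1, the protein of Spi1, close to their start, and members that were high in the same libraries are shown here with one spelling of such a site. The letters AGGAAGT, searched on both strands of the RefSeq promoters (250 bases before to 50 after the gene start, GRCm38.p6), were present in 9 of the 28 members that had a promoter (32.1%) and in 10.7% of all 27025 genes. The 6 windows below have 81 bases each and stop before the gene start. Capitals mark the match, which on the strand of the gene reads as the reverse complement, ACTTCCT.
Mrc1: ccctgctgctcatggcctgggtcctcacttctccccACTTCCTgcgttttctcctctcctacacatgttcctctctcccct
Fcgr1: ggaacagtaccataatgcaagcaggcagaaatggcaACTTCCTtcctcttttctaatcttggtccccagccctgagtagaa
C1qb: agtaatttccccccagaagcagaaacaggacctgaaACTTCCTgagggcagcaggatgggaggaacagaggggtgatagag
C1qc: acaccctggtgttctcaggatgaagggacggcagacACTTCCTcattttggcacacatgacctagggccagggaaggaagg
Pf4: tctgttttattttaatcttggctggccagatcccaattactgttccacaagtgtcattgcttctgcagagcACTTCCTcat
Lyz2: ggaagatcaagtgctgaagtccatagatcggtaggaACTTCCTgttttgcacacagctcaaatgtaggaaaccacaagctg

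The windows lie at chr2:14229167-14229247 (plus strand) for Mrc1, chr3:96293986-96294066 (minus) for Fcgr1, chr4:136886209-136886289 (minus) for C1qb, chr4:136893065-136893145 (minus) for C1qc, chr5:90772354-90772434 (plus) for Pf4 and chr10:117282328-117282408 (minus) for Lyz2. The match begins 211, 61, 53, 195, 10 and 100 bases before the start in that order. Cd53, Ctss and Ptprc held the letters too. In all, 5 overlapping spellings were tried. GAGGAAGT was found in 4 members (14.3%, against 3.69% of all genes), GGAAGT in 15 (53.6%, against 26.5%), GAGGAA in 17 (60.7%, against 31.3%) and AAAGAGGAA in 4 (14.3%, against 1.58%). A match is a string of letters and not a measured site, and no test was made of these shares.

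The 38 genes were low in 6 libraries and high in KO 8 and KO 9. Their summed level was 1582 CPM in KO 8 and 1130 CPM in KO 9. It was 159.1 CPM in KO 17, 260.1 CPM in KO 24, and 230.4, 270.3, 137.2 and 142.2 CPM in Het 6, 7, 13 and 19. KO 17 and KO 24 thus lay inside the Het range. As shares of all counts these are 0.162% in KO 8, 0.115% in KO 9 and 0.0136% to 0.0272% in the other 6. In bulk RNA, fewer cells of a type and less RNA per cell cannot be told apart. The log2 ratio of the mean KO sum to the mean Het sum was 2.0 with all libraries and 0.10 without KO 8 and KO 9.

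KO 8 was the highest of the 8 libraries for 28 of the 38 genes, KO 9 for 9, and Het 6 for C1qa. Both KO 8 and KO 9 were above all other libraries for 34, the exceptions being Cd14, Itgam, C1qa and Lgals3. The list was chosen with earlier results of these data known, so the shares that follow are descriptions and not tests. Among the 33 members that passed the filter on low counts, 29 had this order, against 7.34% of all tested genes. KO 8 was the highest for 24 of the 33, against 22.7% of all tested genes, and KO 9 for 8, against 11.6%. At least 1 count was present in all 8 libraries for 31 members, and 7 had 0 counts in at least 1 library. Some of the 31 were near the limit of detection, such as Ptprc, with 1 count in Het 13 and 1 in Het 19.

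**Figure D1:**
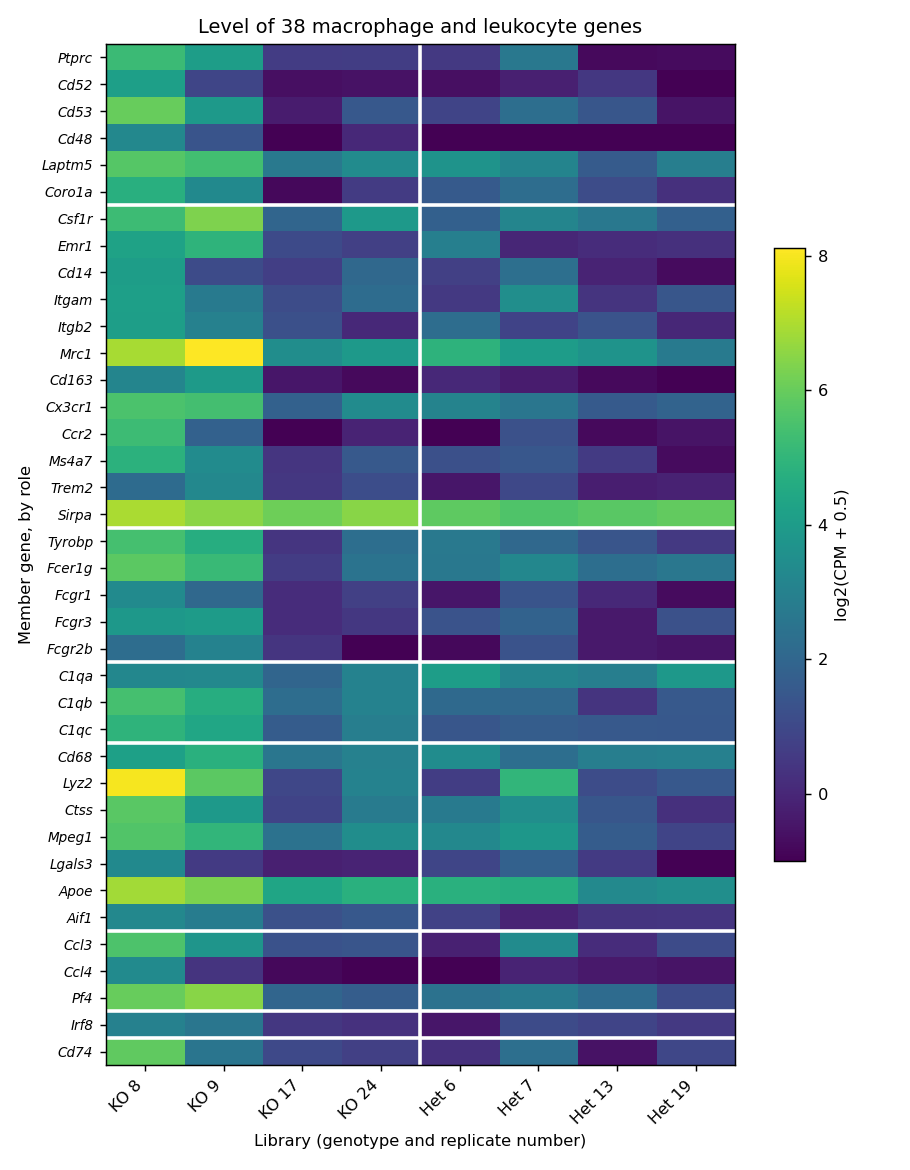
Level of each of the 38 genes (rows, grouped by role) in each library (columns), as log2(CPM + 0.5). KO 8 and KO 9 are brighter than the other 6 columns in most rows, while Sirpa is bright in all 8 and C1qa is not brighter in KO 8 or KO 9.

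Genotypes were compared with edgeR's quasi-likelihood test on the counts, adjusted by Benjamini and Hochberg over the 14116 genes that passed the filter. No member was called at adjusted p under 0.05, against 1.02% of all tested genes in either direction and 0.34% in the higher direction. The lowest adjusted p among members was 0.107. At an unadjusted p under 0.05, 16 of 33 were higher in KO, against 6.35% of all tested genes, and none was lower. The log2 fold change was above 0 for 32 of the 33, against 53.4% of all tested genes, and the median was 2.31 against 0.03. The 5 members not tested (Cd52, Cd48, Cd163, Ccr2 and Ccl4) had too few counts outside KO 8 and KO 9. DESeq2 gave an adjusted p for 34 members, and none for Cd52, Ccr2, Ccl4 and Cd74. It called 10 higher (Aif1, Apoe, C1qb, C1qc, Cd163, Cd48, Csf1r, Cx3cr1, Ms4a7 and Sirpa), against 1.71% of all genes it adjusted. limma-voom with sample quality weights called 0, against 3.54% of all genes, with 4 at an unadjusted p under 0.05 (Aif1, Apoe, C1qb and Sirpa), against 8.05%.

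Without KO 8 and KO 9 together, edgeR called 0 of 33 members, against 1.13% of all genes, and 1, Sirpa, was higher at an unadjusted p under 0.05, against 5.06%. The log2 fold change was then above 0 for 13 of 33, against 47.9%, and the median was -0.37, against -0.03 over all genes. The same libraries under DESeq2, an analysis chosen after seeing the data, gave 0 calls, against 3.91% of all genes, with 1 member higher (Sirpa), against 4.19%, and 1 lower (C1qa) at an unadjusted p under 0.05. Without KO 8 alone edgeR called 0, against 1.99% of all genes, with 10 higher at an unadjusted p under 0.05, against 6.03%, and a median of 1.24. Without KO 9 alone it called 0, against 0.319%, with 11 at that p, against 5.56%, and a median of 1.89. Without KO 17, the KO library with the lowest sum, it called C1qc (adjusted p = 0.0465), against 0.312% of all genes.

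**Figure D2:**
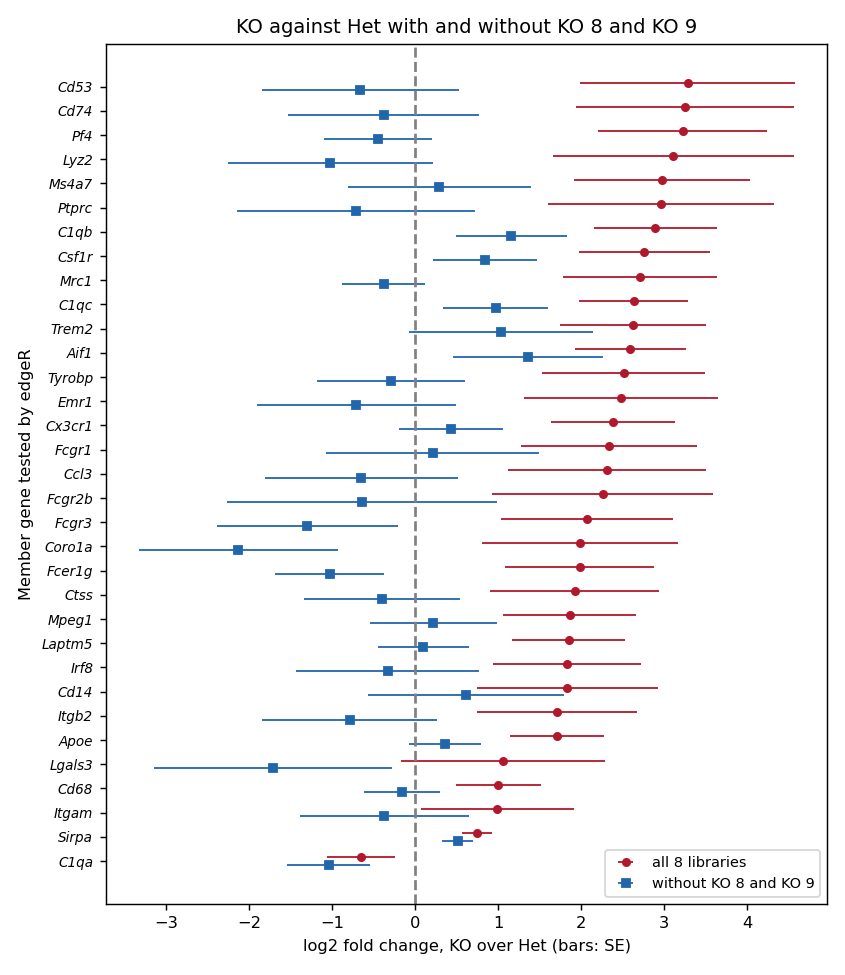
log2 fold change of KO over Het (x axis, with SE) for the 33 tested members (y axis), with all 8 libraries as circles and without KO 8 and KO 9 as squares. With all libraries 32 of 33 lie above 0, and without KO 8 and KO 9 13 of 33 do.

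Genes that mark leukocytes in general were low outside KO 8 and KO 9. Ptprc, which encodes the phosphatase CD45 found on all nucleated blood cells, was at 36.9, 16.4, 1.06 and 1.08 CPM in KO 8, 9, 17 and 24 and at 0.927, 5.75, 0.0883 and 0.101 CPM in Het 6, 7, 13 and 19. The groups overlapped, since Het 7 was above KO 17 and KO 24. For Ptprc the log2 fold change came to 2.96 ± 1.36 (SE, adjusted p = 0.417, edgeR) with all libraries and -0.71 ± 1.43 without KO 8 and KO 9. Cd53, a leukocyte tetraspanin, was at 63.3, 14.9, 0.302 and 2.34 CPM in KO and at 1.31, 4.45, 2.21 and 0.203 CPM in Het, with KO 17 near the bottom of all 8. For Cd53 the log2 fold change came to 3.28 ± 1.29 (adjusted p = 0.34, edgeR) and to -0.66 ± 1.19 without KO 8 and KO 9. Laptm5, a lysosomal membrane protein of blood cells, was at 51.9, 40.2, 5.96 and 10.2 CPM in KO and at 12.2, 8.10, 2.56 and 7.0 CPM in Het. It was the only gene of this group whose lowest library was above 1 CPM, and its log2 fold change of 1.85 ± 0.68 (adjusted p = 0.301, edgeR) became 0.10 ± 0.55 without KO 8 and KO 9.

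The remaining leukocyte genes had the same order. Coro1a, an actin-binding protein of leukocytes, was at 26.2 CPM in KO 8 and 9.49 CPM in KO 9, against 0.0754 to 4.33 CPM in the other 6. On the log2 scale the fold change of Coro1a was 1.99 ± 1.18 with all libraries and -2.13 ± 1.20 without KO 8 and KO 9, neither called. Cd52, a small surface glycoprotein, had 17.1 CPM in KO 8 and 1.36 in KO 9, and elsewhere at most 0.883 CPM. Cd48, a ligand of lymphocyte and macrophage receptors, was at 8.96 CPM in KO 8, 2.07 CPM in KO 9 and 0.539 CPM in KO 24. KO 17 and all 4 Het libraries had 0 counts of Cd48, which allows levels up to 0.185 to 0.304 CPM per library (3 counts, counting error only).

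Of the 12 surface receptors, 7 were highest in KO 8 and 5 in KO 9. Csf1r, the receptor for the growth factors CSF1 and IL-34, was at 37.9, 81, 3.39 and 14.7 CPM in KO 8, 9, 17 and 24 and at 3.01, 8.35, 5.74 and 2.94 CPM in Het 6, 7, 13 and 19. KO 24 was above all Het libraries and KO 17 was not. The log2 fold change was 2.76 ± 0.79 (adjusted p = 0.168, edgeR; 0.0492 by DESeq2) with all libraries and 0.84 ± 0.63 without KO 8 and KO 9. Mrc1, the mannose receptor CD206 that takes up glycoproteins, was at 121, 277, 10.5 and 14.3 CPM in KO and at 29.4, 16.1, 12.4 and 6.29 CPM in Het. KO 17 and KO 24 lay within the Het range. Its fold change was 2.71 ± 0.93 on the log2 scale with all libraries (adjusted p = 0.264, edgeR) and -0.38 ± 0.50 without KO 8 and KO 9.

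Cx3cr1, the receptor for the chemokine fractalkine, was at 45.8, 41.5, 3.02 and 10.1 CPM in KO and at 8.03, 5.44, 2.47 and 3.24 CPM in Het, about level between KO 8 and KO 9. Ms4a7, a membrane protein of mature macrophages, was at 28.4, 10.1, 0.830 and 2.43 CPM in KO and at 1.85, 2.29, 0.972 and 0.101 CPM in Het. Trem2, a lipid-sensing receptor, was at 4.08, 9.01, 0.905 and 1.71 CPM in KO and at 0.232, 1.48, 0.353 and 0.406 CPM in Het. KO 24 was above every Het library for all 3 of these receptors. None of the 3 passed the edgeR test with all libraries (log2 fold changes 2.38, 2.97 and 2.62), and DESeq2 called Cx3cr1 (adjusted p = 0.0148) and Ms4a7 (adjusted p = 0.0409). Without KO 8 and KO 9 the edgeR values were 0.43 ± 0.63 for Cx3cr1, 0.29 ± 1.10 for Ms4a7 and 1.03 ± 1.11 for Trem2, and neither edgeR nor DESeq2 called any of them.

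Sirpa differed from the other receptors because it was well above 0 in every library. It encodes an inhibitory receptor that binds CD47, and it is also made outside the blood lineage. Its level was 123, 91.7, 69.0 and 88.7 CPM in KO and 57.5, 48.2, 54.9 and 60.9 CPM in Het, so every KO library was above every Het library. The log2 fold change was 0.75 ± 0.18 (adjusted p = 0.107, edgeR; 0.0152 by DESeq2) with all libraries and 0.51 ± 0.19 (adjusted p = 0.291, unadjusted p = 0.0195, edgeR) without KO 8 and KO 9. Sirpa alone made up much of the summed level in the 6 low libraries. Without it the sums were 1459 CPM in KO 8, 1038 CPM in KO 9, 90.11 CPM in KO 17, 171.4 CPM in KO 24 and 81.31 to 222.2 CPM in Het.

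The remaining surface genes are given by their range. Emr1, the macrophage antigen F4/80, was at 18.4 CPM in KO 8 and 29.6 CPM in KO 9, against 0.494 to 7.18 CPM in the other 6, with Het 6 the highest of those. Cd163, the scavenger receptor for haemoglobin bound to haptoglobin, had 8.31 CPM in KO 8, 15.3 in KO 9 and no more than 0.541 elsewhere. Ccr2, the receptor that brings blood monocytes into tissues, was at 37.2 CPM in KO 8 and 3.03 CPM in KO 9, against 0 to 1.92 CPM. Cd14, a co-receptor for bacterial lipopolysaccharide, was high in KO 8 only, at 16.3 CPM, with 1.59 CPM in KO 9 and 0.101 to 4.57 CPM in the other 6. The integrin chains Itgam and Itgb2, which pair as the complement receptor CR3, were at 17.4 and 16.8 CPM in KO 8 and at 6.22 and 7.58 CPM in KO 9. In the other 6 libraries Itgam ran from 0.795 to 10.8 CPM, the top value being Het 7, and Itgb2 from 0.507 to 4.33 CPM. Among the 4 tested genes of these 6, the log2 fold change with all libraries and then without KO 8 and KO 9 was 2.48 and -0.71 for Emr1, 1.83 and 0.61 for Cd14, 0.99 and -0.37 for Itgam and 1.71 and -0.79 for Itgb2, none called.

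The Fc receptors, which bind antibody, and their signalling adaptors were each highest in KO 8 (3 of 5) or KO 9 (2 of 5). Tyrobp, the adaptor DAP12 through which TREM2 signals, was at 42.7, 25.1, 0.830 and 4.40 CPM in KO 8, 9, 17 and 24 and at 5.95, 3.71, 2.12 and 0.912 CPM in Het 6, 7, 13 and 19. Fcer1g, the adaptor chain shared by Fc receptors, was at 55.4, 35.5, 1.06 and 5.03 CPM in KO and at 5.79, 8.78, 4.42 and 5.58 CPM in Het. For both, KO 17 was the lowest of the 8 libraries. For Tyrobp the log2 fold change was 2.51 ± 0.98 with all libraries and -0.29 ± 0.89 without KO 8 and KO 9, and for Fcer1g it was 1.98 ± 0.90 and -1.03 ± 0.66, none called by edgeR. Fcgr3, an activating receptor, was at 14.0, 15.7, 0.603 and 0.898 CPM in KO and at 2.01, 3.15, 0.265 and 1.93 CPM in Het. For Fcgr3 the log2 fold change came to 2.07 ± 1.04 with all libraries and -1.30 ± 1.09 without KO 8 and KO 9, and neither passed the edgeR test. Fcgr1, the high-affinity receptor, was at 9.91 CPM in KO 8 and 3.75 CPM in KO 9, against 0.101 to 2.1 CPM. Fcgr2b, the inhibitory receptor, had 4.30 CPM in KO 8, 7.82 in KO 9 and 2.04 or less elsewhere. With all libraries and then without KO 8 and KO 9, the log2 fold change was 2.33 and 0.21 for Fcgr1 and 2.26 and -0.64 for Fcgr2b, none called. Fcgr2b, Fcgr3 and Fcgr4 are similar in sequence, and how reads that match more than 1 of them were assigned is not known from the sources used here.

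The 3 chains of C1q, which together form the recognition part of the classical complement pathway, had different patterns. C1qb was at 43.1, 25.1, 4.30 and 7.82 CPM in KO and at 3.79, 3.71, 0.795 and 2.43 CPM in Het, so all KO libraries were above all Het libraries. C1qc was at 30.0, 20.7, 2.64 and 6.92 CPM in KO and at 2.24, 2.72, 2.38 and 2.33 CPM in Het, with KO 17 just below Het 7. C1qa was at 8.82, 9.09, 3.47 and 7.64 CPM in KO and at 16.4, 8.22, 6.98 and 14.0 CPM in Het, highest in Het 6 and Het 19. The log2 fold changes were 2.89 ± 0.74 for C1qb (adjusted p = 0.119, edgeR), 2.63 ± 0.66 for C1qc (adjusted p = 0.110) and -0.65 ± 0.41 for C1qa (adjusted p = 0.561). Without KO 8 and KO 9 they were 1.16 ± 0.67, 0.97 ± 0.63 and -1.04 ± 0.50, none called. C1qa was the only tested member with a negative fold change with all libraries. With all libraries DESeq2 called C1qb (adjusted p = 0.000996) and C1qc (adjusted p = 0.00159) higher, and did not call C1qa.

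**Figure D3:**
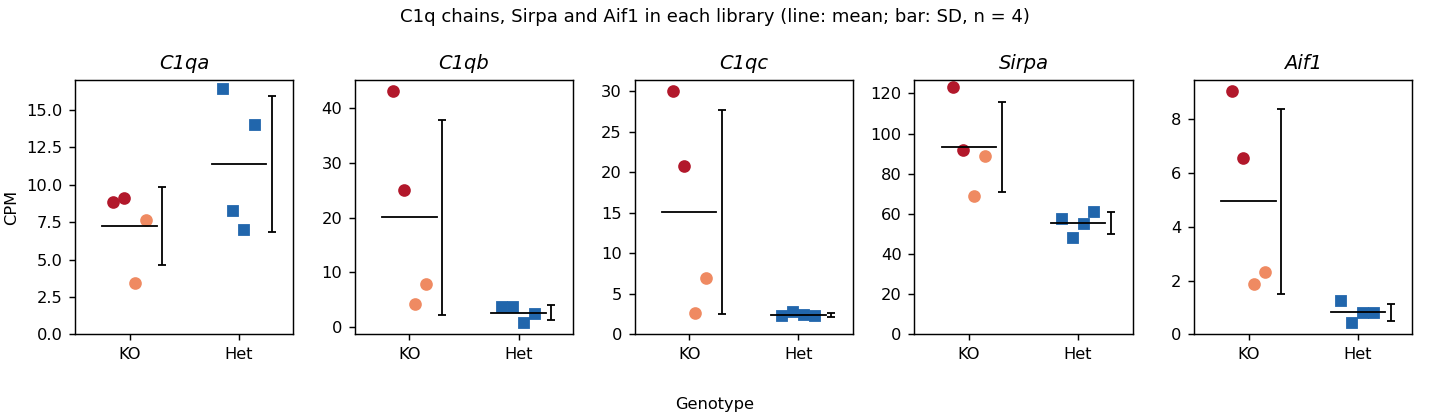
Level in CPM (y axis, starting at 0) of C1qa, C1qb, C1qc, Sirpa and Aif1 in the 4 KO libraries (circles, KO 8 and KO 9 in dark red) and the 4 Het libraries (squares), with the mean as a line and the SD as a bar (n = 4). Every KO library is above every Het library for C1qb, Sirpa and Aif1, whereas the highest C1qa values, 16.4 and 14.0 CPM, are Het.

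Of 7 effector genes of the lysosome, lipid handling and the cytoskeleton, 6 were highest in KO 8 and Cd68 in KO 9. Lyz2, the lysozyme of macrophages and neutrophils, was at 253, 56.1, 1.43 and 7.73 CPM in KO 8, 9, 17 and 24 and at 1.08, 31.2, 1.68 and 2.33 CPM in Het 6, 7, 13 and 19. Het 7 was above KO 17 and KO 24. For Lyz2 the log2 fold change came to 3.11 ± 1.45 (adjusted p = 0.425, edgeR) with all libraries and -1.02 ± 1.23 without KO 8 and KO 9. Its paralog Lyz1 had at most 0.618 CPM in any library. Apoe, the lipid carrier that macrophages secrete, was at 114, 79.0, 19.9 and 27.0 CPM in KO and at 27.4, 25.3, 9.36 and 10.8 CPM in Het. It was present at several CPM in all 8 libraries. The log2 fold change of Apoe was 1.71 ± 0.57 (adjusted p = 0.238, edgeR; 0.0283 by DESeq2) and 0.36 ± 0.43 without KO 8 and KO 9.

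Mpeg1, a pore-forming protein of phagocytes, was at 49.8, 31.8, 4.98 and 10.7 CPM in KO and at 8.96, 13.5, 2.65 and 1.32 CPM in Het, with a log2 fold change of 1.86 ± 0.80 (adjusted p = 0.386, edgeR) that became 0.22 ± 0.76 without KO 8 and KO 9. Aif1, the cytoskeletal protein IBA1, was at 9.03, 6.54, 1.89 and 2.34 CPM in KO and at 1.24, 0.433, 0.795 and 0.811 CPM in Het. The 2 groups did not overlap for Aif1. For Aif1 the log2 fold change came to 2.59 ± 0.67 (adjusted p = 0.128, edgeR; 0.00985 by DESeq2), and 1.36 ± 0.90 without KO 8 and KO 9. Aif1, C1qb and Sirpa were the 3 of 33 tested members whose groups did not overlap, against 3.55% of all tested genes with every KO library above every Het library. For 0 members was every KO library below every Het library, against 4.48%. For the same 3, KO 17 and KO 24 were each above all 4 Het libraries.

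Cd68, a lysosomal glycoprotein, was at 17.9 CPM in KO 8 and 26.9 CPM in KO 9, against 4.45 to 10.3 CPM in the other 6. Ctss, a protease of antigen processing, had 54.4 CPM in KO 8, 14.3 in KO 9 and from 0.710 to 10.9 elsewhere. Lgals3, a sugar-binding lectin of activated macrophages, was at 9.62 CPM in KO 8, while its 0.957 CPM in KO 9 lay within the 0 to 3.03 CPM of the other 6. With all libraries and then without KO 8 and KO 9, the log2 fold change was 1.0 and -0.16 for Cd68, 1.92 and -0.40 for Ctss and 1.06 and -1.71 for Lgals3, none called.

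Among chemokines, Pf4, made by megakaryocytes and by tissue macrophages, was at 62.7, 89.2, 3.47 and 2.69 CPM in KO and at 4.94, 6.12, 4.06 and 1.62 CPM in Het. The 8 megakaryocyte and platelet markers summed to 84.44 CPM in KO 8, 7.259 CPM in KO 9 and 6.787 to 30.72 CPM in the other 6. Itgb3, an integrin that other cell types also make, gave 82.2 CPM of the KO 8 sum, and Gp6 and Treml1 had 0 counts in all 8. Gp9 was at 0.583, 1.28, 0.8295 and 0.2695 CPM in KO 8, 9, 17 and 24 and at 3.09 to 6.99 CPM in Het. For Gp9 edgeR gave a log2 fold change of -2.69 (adjusted p = 0.0794). It was called lower by DESeq2 (adjusted p = 0.00136, and 0.00318 without KO 8 and KO 9) and by limma-voom (0.0356). The log2 fold change of Pf4 was 3.22 ± 1.02 (adjusted p = 0.216, edgeR) and -0.45 ± 0.65 without KO 8 and KO 9. Ccl3, which attracts monocytes, was at 47.4, 13, 1.96 and 2.16 CPM in KO and at 0.386, 10.1, 0.618 and 1.62 CPM in Het, with a log2 fold change of 2.31 ± 1.19 (adjusted p = 0.472, edgeR) that became -0.65 ± 1.16 without KO 8 and KO 9. Ccl4, its neighbour with a like role, was at 9.84, 0.798, 0.0754 and 0 CPM in KO and at 0, 0.433, 0.265 and 0.203 CPM in Het. Ccl3 and Ccl4 overlap in the RefSeq annotation and strand was not kept, so their reads may not be fully separate.

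Irf8, a transcription factor of the monocyte and macrophage line, was at 7.58, 5.42, 0.905 and 0.719 CPM in KO and at 0.232, 1.61, 1.32 and 0.912 CPM in Het, with a log2 fold change of 1.83 ± 0.89 (adjusted p = 0.441, edgeR) that became -0.33 ± 1.10 without KO 8 and KO 9. Sfpi1 was at 6.48 CPM in KO 8 and 2.39 CPM in KO 9, against 0.0754 to 0.442 CPM in the other 6. Both factors were thus highest in the same 2 libraries. Cd74, the invariant chain that guides MHC class II molecules, was at 59.0, 5.26, 1.51 and 1.17 CPM in KO and at 0.695, 4.57, 0.177 and 1.42 CPM in Het. KO 9 was only slightly above Het 7 for Cd74. For Cd74 the log2 fold change came to 3.25 ± 1.31 (adjusted p = 0.353, edgeR) with all libraries and -0.38 ± 1.15 without KO 8 and KO 9.

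KO 8 and KO 9 differed in how high most members were, although both were above the other 6 libraries for 34 of the 38. The ratio of the 2 levels was computed with an exact 95% binomial interval, which covers counting error only and not the spread between animals. The interval lay above 1 for 27 members, below 1 for 8 and included 1 for Cx3cr1, Fcgr3 and C1qa. The 9 members at least 4 times higher in KO 8 were Cd52, Ccl4, Ccr2, Cd74, Cd14, Lgals3, Lyz2, Cd48 and Cd53. Among them were Ccr2 (ratio 12.3, interval 8.83 to 17.6), Cd14 (10.2, 6.47 to 17.1) and Cd74 (11.2, 8.72 to 14.6). The 8 members lower in KO 8 than in KO 9 were Mrc1 (ratio 0.438, interval 0.413 to 0.465), Trem2 (0.453, 0.323 to 0.629), Csf1r (0.468, 0.420 to 0.521), Cd163 (0.542, 0.426 to 0.687), Fcgr2b, Emr1, Cd68 and Pf4. With 1 library on each side the comparison is of these libraries only.

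**Figure D4:**
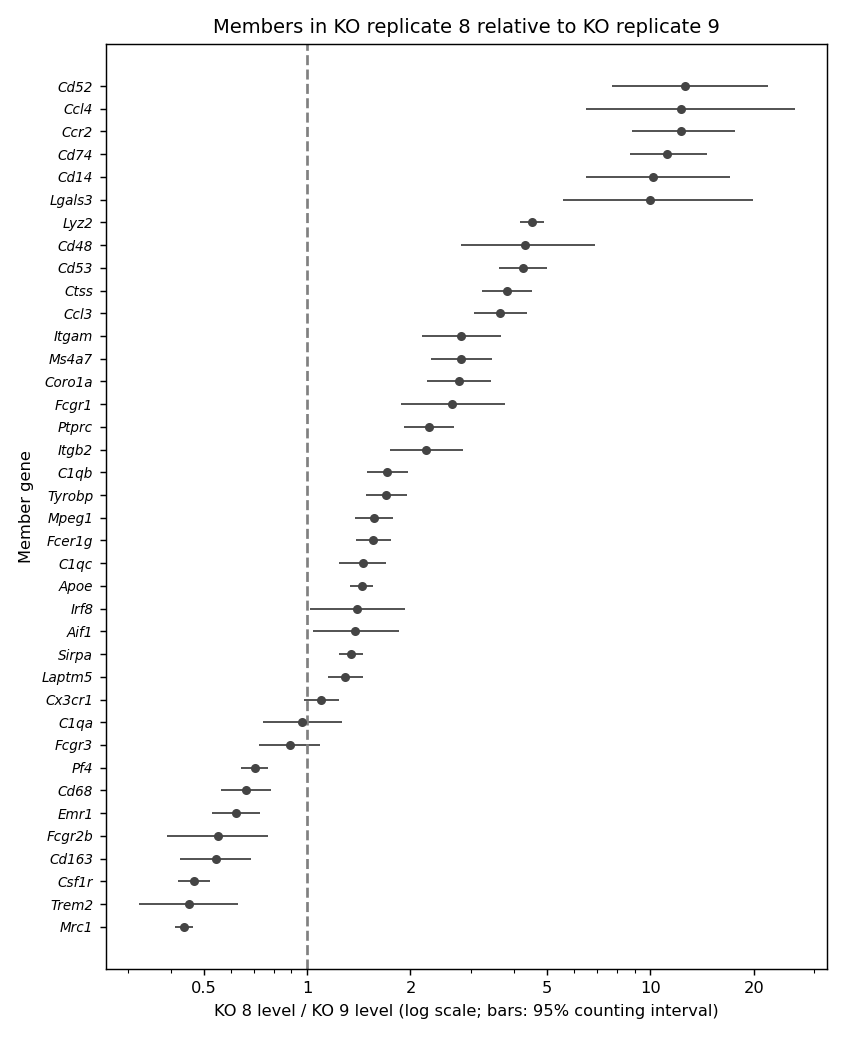
Level in KO 8 divided by the level in KO 9 for each of the 38 members (x axis, log scale, with 95% counting intervals), sorted by the ratio. The dashed line is a ratio of 1, with 27 members whose interval lies above it and 8 below it.

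Over the 37 members with a nonzero median in the other 6 libraries, the level in KO 8 was a median of 13.1 times that median, and in KO 9 7.12 times. Over all tested genes the same medians were 0.995 and 1.0. KO 24 was above KO 17 in 27 of the 33 tested members, against 49.7% of all tested genes. Het 7 was the highest Het library for 21 of the 33, against 23.3%.

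A second list of 60 macrophage and myeloid genes that are not members had 42 tested genes, of which edgeR called 0, against 1.02% of all genes. Their median log2 fold change was 1.93, with 39 of 42 above 0 (53.4% of all tested genes) and 15 higher at an unadjusted p under 0.05 (6.35%), and without KO 8 and KO 9 the median was -0.26. DESeq2 called 6 of them higher, against 1.71% of all genes it adjusted, and limma-voom called 1, Cd33, against 3.54% of all genes. Without KO 8 and KO 9 DESeq2 called 1, Lyve1, which was lower in KO (log2 fold change -1.51, adjusted p = 0.000164). Among those with the highest levels, F13a1, a transglutaminase of tissue macrophages, was at 155 CPM in KO 8 and 184 CPM in KO 9, against 2.23 to 23.9 CPM in the other 6.

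Ligands of the member receptors differed among themselves in which library was highest. Csf1 was at 35.3 CPM in KO 8 and 1.62 to 8.96 CPM in the other 7, and Il34 was at 0.319 CPM or less. Cx3cl1, the ligand of CX3CR1, was lowest in KO 8, at 1.31 CPM, and ran up to 15.1 CPM. Cd47, the ligand of SIRPA, was at 116 to 203 CPM in all 8. For 2 of the 10 listed ligands, Ccl2 and Ccl7, both KO 8 and KO 9 were above the other 6 libraries. Ccl2 was at 20.2 CPM in KO 8, 6.94 CPM in KO 9 and 0.265 to 1.61 CPM in the other 6. Of the 7 tested ligands edgeR called 0, against 1.02% of all tested genes. At an unadjusted p under 0.05 there were 0, against 6.35% of all tested genes in the higher direction. Ccl2 was not among the 7, and DESeq2 called it higher (adjusted p = 0.05 as rounded).

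Markers of other cell types moved with the members in KO 8 more than in KO 9, and their part in the results was not tested. The summed level of 11 mesenchyme markers was 9867 CPM in KO 8, 541.1 CPM in KO 9 and 268.4 to 1248 CPM in the other 6. The 9 neutrophil markers with a row summed to 210.3 CPM in KO 8, 18.51 CPM in KO 9 and 0.0754 to 12.24 CPM in the other 6, and S100a8 and S100a9 were at 67.2 and 73.9 CPM in KO 8. S100a9 was at 0 CPM in KO 17 and KO 24 and at 3.09, 3.83, 1.59 and 0 CPM in Het 6, 7, 13 and 19. Without KO 8 and KO 9 DESeq2 called S100a9 lower in KO (log2 fold change -7.15, adjusted p = 0.0107). The mast-cell markers other than Kit, which was at 71.9 to 83.8 CPM everywhere, summed to 205 CPM in KO 8, 34.9 CPM in KO 9 and 1.13 to 3.83 CPM in the other 6. Cpa3, a mast-cell protease, led them at 93.8 CPM in KO 8 and 12.0 CPM in KO 9. With all libraries DESeq2 called Hdc of the mast-cell list (adjusted p = 0.0284) and Pdgfrb of the mesenchyme list (adjusted p = 0.0388) higher. EdgeR called neither. The MHC class II list summed to 169.7 CPM in KO 8 and 8.216 CPM in KO 9, against 4.634 to 12.49 CPM in the other 6, and H2-Aa was at 85.2 and 2.47 CPM.

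The T-cell, NK-cell, dendritic-cell and endothelial lists also summed highest in KO 8, and the B-cell list did not. The 8 T-cell markers summed to 61.27 CPM in KO 8, 19.62 CPM in KO 9 and 4.762 to 14.13 CPM in the other 6. Cd4, which some macrophages also make, was at 25.9 CPM in KO 8, 4.15 CPM in KO 9 and 0.309 CPM or less elsewhere, and Thy1 was at 27.2 CPM in KO 8. The defining genes Cd3d, Cd3e, Cd3g and Cd8a summed to 3.43 CPM or less in every library. Of these, Cd3e was at 0.801, 3.43, 1.28 and 1.71 CPM in KO 8, 9, 17 and 24. In Het it was at 0.707 CPM or less, so every KO library was above every Het library. For Cd3e edgeR gave a log2 fold change of 3.02 ± 1.06, not called. The other tested T-cell markers, Lck and Thy1, were at -0.02 and 1.76, not called either. The 7 NK-cell markers summed to 11.8 CPM in KO 8, 1.436 CPM in KO 9 and 0 to 0.265 CPM in the other 6, with Ncr1 at 0 in all 8. The 8 dendritic-cell markers summed to 18.94 CPM in KO 8, 7.418 CPM in KO 9 and 0.9269 to 7.637 CPM in the other 6. Of these, Clec9a was at 4.809, 3.111, 4.525 and 7.098 CPM in KO and 0.53 CPM or less in Het. For Clec9a edgeR gave 4.57 (adjusted p = 0.073), and DESeq2 called it with all libraries (5.94e-05) and without KO 8 and KO 9 (0.000892). Zbtb46, the other of 2 tested genes, was at 0.05 (adjusted p = 0.989, edgeR). The 7 B-cell markers summed to 1.159 to 3.647 CPM, with Het 7 the highest, and Ms4a1 and Pax5 had 0 counts in all 8. The 8 endothelial markers summed to 26.16 CPM in KO 8 and 24.41 CPM in KO 9, both above the 5.731 to 16.53 CPM of the other 6. The globin genes Hba-a1, Hba-a2, Hbb-b1 and Hbb-b2 also had 0 counts in all 8. Acinar markers summed highest in KO 9, at 43870 CPM, and ran from 9738 to 30770 CPM elsewhere.

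**Figure D5:**
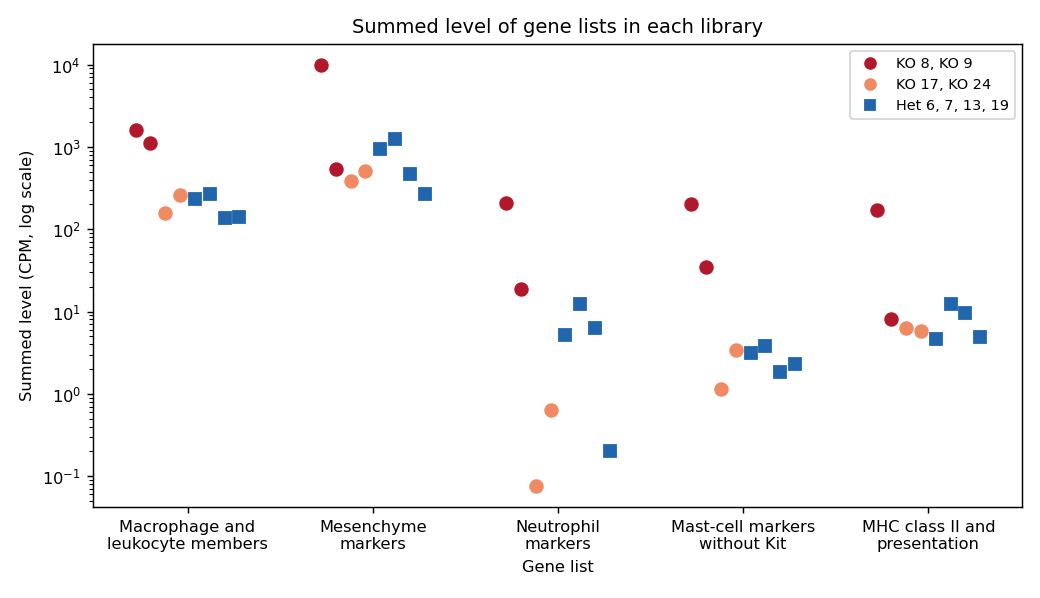
Summed CPM (y axis, log scale) of the members, mesenchyme markers, neutrophil markers, mast-cell markers without Kit and MHC class II genes in each library (circles KO, squares Het). KO 8 is highest for all 5 lists, and KO 9 is above the 6 other libraries for the members, the neutrophil markers and the mast-cell markers but not for mesenchyme or MHC class II.

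The genes outside the list with the most similar profile were found by Pearson correlation of log2 CPM with the mean standardised profile of the 33 tested members, over the 8 libraries and among 12025 genes. The 10 closest were Pld4 (r = 0.986), Fcgrt, Samsn1, Maf, Zfp36l1, Arhgap30, Abca9, B2m, Ccl2 and Ms4a6b (r = 0.954). The points share 8 libraries, and KO 8 and KO 9 carry most of the range. Pld4 was at 11.4 CPM in KO 8 and 9.49 CPM in KO 9, against 1.22 to 2.72 CPM in the other 6. B2m, the light chain of MHC class I, was at 217.8 and 92.4 CPM, against 22.5 to 35.2 CPM.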

How the data were processed

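The counts the authors deposited are unnormalized integers, 1 value per gene symbol in each library's own table. The labels' protocols name the NuGEN Ovation V2 kit, which amplifies cDNA without keeping strand, so amplified copies are among the counts. Build mm9 and the tools Cufflinks 2.0.2, TopHat2 2.1.0, bcl2fastq 1.8.4 and DESeq are those listed in the submitters' processing notes. Which tool and annotation gave the counts is not given in the sources used here.

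Levels are CPM on TMM-scaled library sizes. The test was edgeR 4.0.16 (R 4.3.3), quasi-likelihood, with filterByExpr (minimum count 10, minimum total 15) and Benjamini-Hochberg adjustment over all tested genes, called under 0.05, after a check on simulated counts. The SE given with an edgeR log2 fold change is approximate. It was derived as the absolute log2 fold change divided by the square root of the F statistic. DESeq2 1.42.0, limma 3.58.1, other scalings and filters, and left-out libraries were alternatives. Members and gene lists were chosen with earlier results of these data known. A member was given in every library if it was called, had an unadjusted p under 0.05, had groups that did not overlap, or was among the 3 highest of its role by mean CPM. From each other list the called genes or up to 2 with the highest mean were to be named. Genes named beyond that were chosen after their values were seen. Promoter sequences are from RefSeq, GRCm38.p6, another build than that of the files.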

Additional observations from a re-analysis of the deposited data

Results flagged for a closer look

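In groups of 4 libraries, 1 library can lie far from the other 3. Of 73 groups tried (a member in 1 genotype), 13 were flagged by a gap that passed Dixon's 95% critical value. Chance flags about 1 in 20 for normally distributed values in independent groups. These were CPM values without a log scale, and the groups share the same 8 libraries, so that rate cannot be set against the 13. Het 7 was the high library in 7 of the 13 flagged groups, for Ptprc (5.75 CPM), Itgam (10.8 CPM), Ccr2 (1.92 CPM), Trem2 (1.48 CPM), Fcgr2b (2.04 CPM), Lyz2 (31.2 CPM) and Ccl3 (10.1 CPM). Het 6 was the high library for Emr1 (7.18 CPM). KO 8 was the high library for Cd52 (17.1 CPM), Ccr2 (37.2 CPM), Lgals3 (9.62 CPM), Ccl4 (9.84 CPM) and Cd74 (59.0 CPM).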

How the results depend on the processing

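The count of genes called moved from 144 to 585 with DESeq2, 500 with limma-voom and sample quality weights, 29 to 285 on leaving out 1 library at a time, and 551 with DESeq2 without KO 8 and KO 9. Members called moved from 0 to 10 with DESeq2 and lay between 0 and 1 on leaving out 1 library. The other myeloid genes called moved from 0 to 6 higher (DESeq2), 1 higher (limma-voom) and 1 lower (DESeq2 without KO 8 and KO 9). The median log2 fold change of the members moved from 2.31 to -0.37 (edgeR) and -0.38 (DESeq2) without KO 8 and KO 9, and the log2 ratio of the summed level from 2.0 to 0.10. The cause was not tested. Without KO 8 and KO 9 the log2 fold change turned negative, by edgeR and, where given second, DESeq2, for Ptprc (-0.71, -0.71), Cd53 (-0.66, -0.65), Coro1a (-2.13, -2.14), Emr1 (-0.71, -0.71), Itgam (-0.37, -0.36), Itgb2 (-0.79, -0.80), Mrc1 (-0.38, -0.38), Tyrobp (-0.29, -0.29), Fcer1g (-1.03, -1.02), Fcgr3 (-1.30, -1.30), Cd68 (-0.16, -0.16), Ctss (-0.40, -0.39), Lgals3 (-1.71, -1.72), Ccl3 (-0.65, -0.65), Pf4 (-0.45, -0.45), Irf8 (-0.33, -0.34), Cd74 (-0.38, -0.38), Fcgr2b (-0.64) and Lyz2 (-1.02). With limma-voom Coro1a was at -1.11 and Fcer1g at -0.26, and on leaving out 1 library Lgals3 lay between -1.20 (KO 8 left out) and 1.82 (Het 7 left out). Under the other scalings and filters on low counts no member with a value (22 of 33 at the filter of 2 CPM in 4 libraries) changed direction or call. Genes with few counts in 6 of the 8 libraries are limited by depth. No paired analysis was possible because the replicate numbers are not shared between genotypes.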
